A study of Arabidopsis thaliana with 8 samples.

Results

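AT1G30700 and AT1G09500 are Arabidopsis thaliana genes for oxidoreductases, that is, enzymes that move electrons between substrates. The first encodes a berberine bridge enzyme-like protein and the second a reductase that resembles cinnamyl alcohol dehydrogenase. All probe sets that the array's annotation assigns to either gene alone were taken, which gave 4 probe sets for the 2 genes, out of 3592 genes with a probe set of their own and 8247 probe sets without array controls. The genes were chosen by their measured signal, which was higher in yda-2 than in wild type (WT) on these same arrays. Their difference between the genotypes is therefore given as a description, and tests of it appear only as background from which nothing is read.

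The mutant plants carry the allele yda-2 of the gene YODA (YDA), whose product is a kinase at the top of a MAP kinase cascade that limits how many stomata form. WT plants without the allele are the controls, and neither ecotype nor plant age in days is stated in the labels. Plants of both genotypes grew in potting mix at 22 °C under continuous light, and the parts above ground were collected as rosettes, before a flowering stem appeared. Each genotype has 4 arrays, numbered 1 to 4, from plantings raised and collected at separate times, so that a yda-2 array and the WT array of the same number are treated as a pair. How many plants went into each RNA sample is not given in the sources used here. No stress treatment was part of the design. Whole rosettes hold many cell types, and in such samples fewer cells of a type and less RNA per cell cannot be told apart. YDA itself was not analysed here.

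Berberine bridge enzyme-like proteins carry flavin, some of them pass electrons to oxygen, and most are secreted. They are named after an alkaloid enzyme of poppies. Several of the Arabidopsis members that have been characterized oxidize monolignols or fragments of cell wall polysaccharides, and several members are switched on when plants meet pathogens. Cinnamyl alcohol dehydrogenase-like reductases such as AT1G09500 belong to the short-chain dehydrogenase superfamily and use NADPH. They are related to dihydroflavonol reductase and cinnamoyl-CoA reductase, and are distinct from the zinc-containing alcohol dehydrogenases that finish lignin precursors. The name of AT1G09500 rests on sequence similarity, and no substrate of either enzyme was measured here.

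AT1G30700 was read by probe sets 14015_s_at and 14016_s_at. On 14015_s_at the signal, a scaled fluorescence intensity without unit, was 206.4, 200.3, 136.4 and 181.2 on yda-2 arrays 1 to 4, against 36.9, 33.7, 18.4 and 34.9 on WT arrays 1 to 4. Every yda-2 array lay above every WT array, and array 3 was the lowest in both genotypes. The mean was 181.1 ± 31.7 in yda-2 and 31.0 ± 8.5 in WT (SD, n = 4 each). The difference, as log2(signal + 16) in yda-2 minus WT, was 2.07 with a standard error of 0.19 between groups. Because 16 is added to each value, this scale understates the change of dim probe sets: the plain ratio of yda-2 to WT was 5.59, 5.94, 7.41 and 5.19 in pairs 1 to 4.

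The difference on 14015_s_at varied little between plantings on the scale with 16 added. It was 2.07, 2.12, 2.15 and 1.95 in pairs 1 to 4, with a standard error of 0.04 within pairs. It was 2.10 in pairs 1 and 2 and 2.05 in pairs 3 and 4, whose arrays had different signal ranges: the highest signal of an array was 22519 to 33920 for numbers 1 and 2 and 6226 to 10422 for numbers 3 and 4. Both its size and its evenness rest on the constant that is added, since the plain ratios ran from 5.19 to 7.41. The mean difference was 2.54 for a constant of 1 and 1.36 for 64, because the WT values are near 16.

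The second probe set of AT1G30700 was dimmer and did not repeat this in every pair. On 14016_s_at the signal was 93.0, 24.0, 125.1 and 99.9 on yda-2 arrays 1 to 4, against 16.4, 86.6, 11.5 and 9.5 on WT arrays 1 to 4. In pairs 1, 3 and 4 yda-2 was the higher, with log2 differences of 1.75, 2.36 and 2.18. In pair 2 it was the lower, at -1.36, and the groups overlapped. The mean difference was 1.23 with a standard error of 0.87 within pairs, and it was 2.10 over the 3 other pairs.

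Pair 2 holds WT array 2, which stood apart from the rest: its mean correlation with the other arrays across tested probe sets was 0.819, against 0.873 to 0.903 for the other 7. It also had the highest median signal, 190.3, where the others had 125.7 to 158.1. Among the 3459 probe sets with a mean signal under 100, the highest of the 4 WT values was that of array 2 in 60.9%, a count made after the values were seen. The WT value of 86.6 for 14016_s_at is on that array. The low yda-2 value of 24.0 is on the other array of the pair, and the part of either array in the result was not tested.

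**Figure D1:**
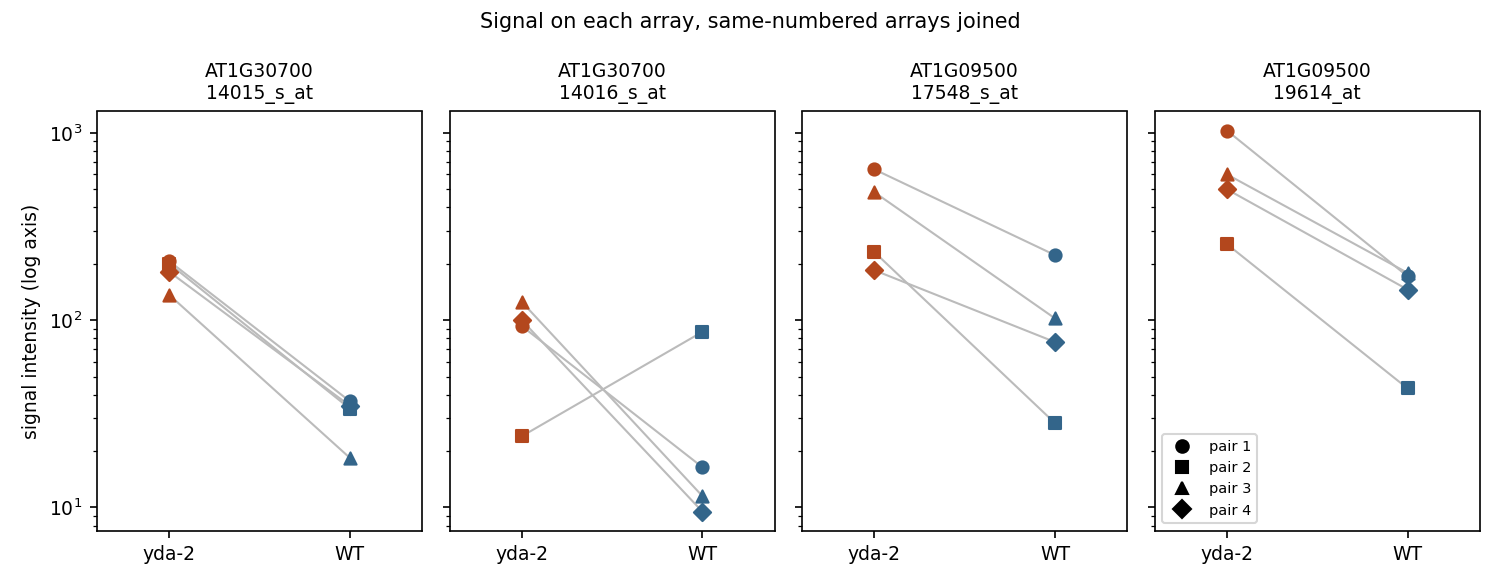
Signal intensity on a logarithmic axis for the 4 probe sets of AT1G30700 and AT1G09500, with yda-2 at the left and WT at the right of each panel; each symbol is an array and grey lines join arrays of the same number. The lines fall from yda-2 to WT in all pairs of 14015_s_at, 17548_s_at and 19614_at, while in pair 2 of 14016_s_at the yda-2 value is 24.0 and the WT value 86.6.

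The AT1G09500 signal varied widely between arrays of a genotype. On 19614_at the highest array was 4.04 times the lowest in yda-2 and 4.14 times in WT, where 14015_s_at had 1.51 in yda-2 and 2.01 in WT. On 19614_at the signal was 1028.5, 254.6, 600.2 and 499.4 on yda-2 arrays 1 to 4, against 171.5, 43.2, 178.8 and 145.7 on WT arrays 1 to 4. All yda-2 values were above all WT values, and array 2 was the lowest in both genotypes. The mean was 595.7 ± 323.0 in yda-2 and 134.8 ± 62.7 in WT (SD, n = 4 each). The log2 difference was 2.00, with a standard error of 0.57 between groups and 0.20 within pairs.

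On 17548_s_at the signal was 638.0, 230.8, 481.9 and 184.6 on yda-2 arrays 1 to 4, against 222.5, 28.2, 102.2 and 76.4 on WT arrays 1 to 4. Each yda-2 value exceeded the WT value of its own pair, but the groups overlapped, since yda-2 array 4 lay below WT array 1. The mean was 383.8 ± 214.0 in yda-2 and 107.3 ± 82.7 in WT (SD, n = 4 each). The log2 difference was 1.78, with a standard error of 0.64 between groups and 0.31 within pairs.

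The size of the AT1G09500 difference varied between pairs more than that of 14015_s_at. It was 2.48, 2.19, 1.66 and 1.67 on 19614_at in pairs 1 to 4. On 17548_s_at it was 1.46, 2.48, 2.07 and 1.12, so the probe sets did not order the pairs alike. The mean without pair 2 was 1.94 on 19614_at and 1.55 on 17548_s_at.

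**Figure D2:**
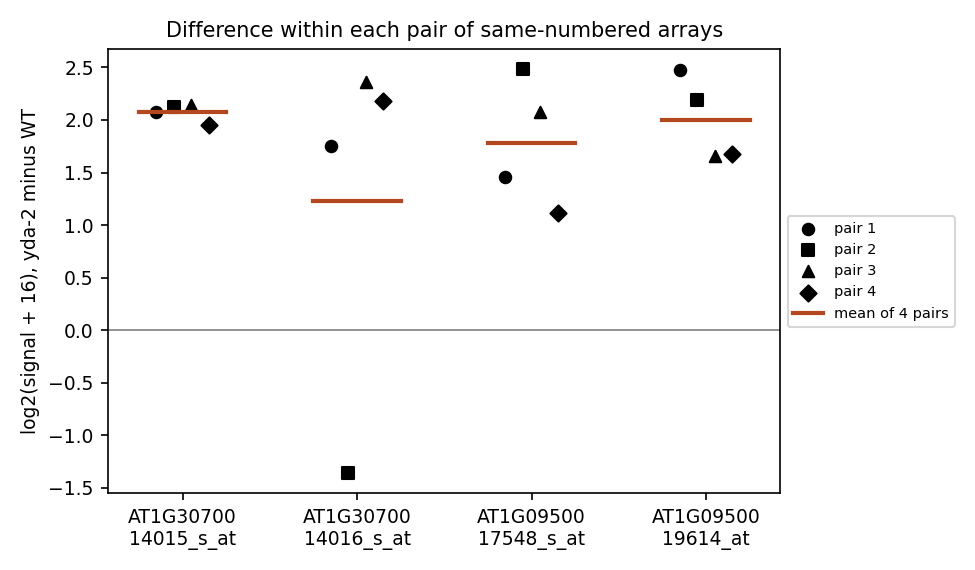
Difference in log2(signal + 16), yda-2 minus WT, for each pair of same-numbered arrays (black symbols) and their mean (red bar), for the 4 probe sets. The pairs of 14015_s_at lie between 1.95 and 2.15, those of 19614_at between 1.66 and 2.48 and those of 17548_s_at between 1.12 and 2.48, while 14016_s_at has pair 2 at -1.36.

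Of the 4 probe sets, 14015_s_at, 17548_s_at and 19614_at were among the 4788 whose signal averaged 100 or more on the 8 arrays and which were tested in limma, a linear model with shared variance estimates. The remaining 14016_s_at averaged 58.3 and was left out. 14015_s_at averaged 106.0 and passed only through its yda-2 arrays, since its WT mean of 31.0 is below the minimum. A probe set that enters in this way has to differ, and its passing supports nothing. Ordered by log2 difference, 14015_s_at, 19614_at and 17548_s_at stood at places 5, 7 and 10 of the 4788.

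As background to these choices, limma without the pairing called 0 of the 3 tested probe sets at the threshold of 0.05 on the adjusted p, and 0.0418% of all tested probe sets were called higher in yda-2. At an unadjusted p under 0.05, limma had 3 of the 3 higher in yda-2, as 2.46% of all. With the pairing in the limma fit 1 of the 3 passed, 19614_at, where 0.188% of all were called higher. Without pair 2 that fit called 3 of the 3, with 23 of 4788 called higher, and without pair 1, 3 or 4 it called 0. The groups did not overlap for 2 of the 3, as for 1.73% of all, with yda-2 on top. The yda-2 array was the higher in 4 of 4 pairs for 3 of the 3, as for 9.44% of all. These counts come from the contrast that chose the genes, and nothing is read from them.

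Ranks within an array do not depend on how the array was scaled. Among the 8247 probe sets, 14015_s_at stood between percentiles 50.9 and 58.1 on yda-2 arrays and between 20.8 and 29.6 on WT arrays. For AT1G09500, 19614_at stood between 62.0 and 86.4 on yda-2 arrays and between 23.8 and 56.9 on WT arrays. 17548_s_at stood between 52.6 and 80.4 on yda-2 arrays and between 18.5 and 62.1 on WT arrays, so the genotypes overlapped in rank for it alone of these 3.

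Bacterial and phage control transcripts and a measure of RNA end bias also differed between the genotypes. The 33 probe sets for bacterial and phage control transcripts averaged 6.76 in yda-2 and 6.97 in WT on the log2 scale, and were lower in yda-2 in 4 of 4 pairs. The ubiquitin 3' signal over its 5' signal averaged -0.11 in yda-2 and -0.45 in WT on the log2 scale, and was higher in yda-2 in 4 of 4 pairs. This ratio rests on 2 probe sets. It was 0.65 in yda-2 and 0.06 in WT in pair 1, and -0.26 and -0.92 in pair 2. Pair 3 was nearly tied, with a ratio of -0.356 in yda-2 and -0.363 in WT and controls at 6.20 and 6.23. Centring each array on its median left the differences of 14015_s_at and 19614_at at 2.04 and 1.97, and quantile normalization at 2.04 and 1.95. The median log2 difference of all tested probe sets was 0.02. The part of RNA end bias in the result was not tested.

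Plantings were then compared irrespective of genotype, a comparison that played no part in choosing the genes. The replicate number was tested in limma with genotype in the model, and 8.29% of all tested probe sets passed an adjusted p of 0.05 (limma F-test, 397 of 4788). For AT1G09500 1 of its 2 probe sets passed: 19614_at had F = 10.3 and adjusted p = 0.0407 in limma, and 17548_s_at had F = 7.98 and adjusted p = 0.0624. The average over both genotypes on 19614_at was 8.79, 6.98, 8.44 and 8.17 on the log2 scale for numbers 1 to 4, so number 2 was the lowest. The call rests on number 2: without that pair 19614_at had F = 2.20 and adjusted p = 0.322 in limma. On 17548_s_at the averages were 8.63, 6.71, 7.92 and 7.09, and without pair 2 it had F = 12.0 and adjusted p = 0.0246 in limma.

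On 14015_s_at, the tested probe set of AT1G30700, no difference between plantings was detectable with 8 arrays. In simulated data with the spread of these arrays, the F-test found 6.2% of 2-fold and 57.6% of 4-fold planting differences. A missing call therefore does not show that the plantings were alike. 14015_s_at had F = 0.52 and adjusted p = 0.782 in limma. Its averages over both genotypes were 6.76, 6.70, 6.18 and 6.65 on the log2 scale for numbers 1 to 4. Its lowest number was 3 and not 2. It entered the test only through its yda-2 arrays, since its WT mean of 31.0 is below the minimum of 100. The log2 scale with 16 added understates differences among such dim WT values, so the F-test gives no planting result for AT1G30700. Planting and array run share the replicate number and cannot be told apart.

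**Figure D3:**
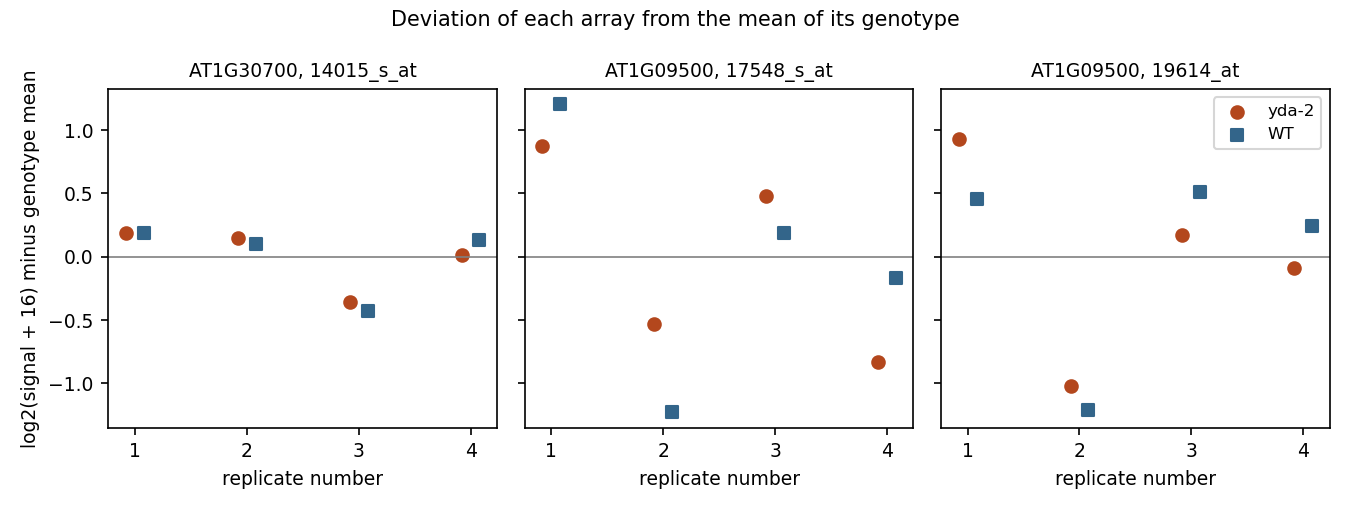
Deviation of each array from the mean of its own genotype, in log2(signal + 16), by replicate number, for the 3 tested probe sets; circles are yda-2 and squares WT. Both genotypes lie below their mean at number 2 on the AT1G09500 probe sets 17548_s_at and 19614_at and at number 3 on the AT1G30700 probe set 14015_s_at.

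Once genotype was taken out, the signals of the 2 genes were not positively correlated. Over the 8 arrays the log2 signals of 14015_s_at and 19614_at correlated at r = 0.77, a value that the choice of both genes for the same difference raises. After each genotype's mean was subtracted r was -0.20, and with 17548_s_at it was -0.07. The AT1G09500 probe sets 17548_s_at and 19614_at correlated with each other at r = 0.92 over the 8 arrays and at 0.81 after subtraction. The AT1G30700 probe sets 14015_s_at and 14016_s_at had r = 0.60 and -0.09. Each r is a description over 8 arrays that share scaling and, in pairs, planting.

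Other genes show how alike the probe sets of a gene were on these arrays, a comparison added after the values were seen. Among 84 genes with exactly 2 probe sets of their own, both with the minimum signal, the median r between them was 0.25 over the 8 arrays. The value of 0.92 for AT1G09500 was reached or passed by 7 of the 84, AT1G09500 included. In 69 of the 84 the probe sets pointed in opposite directions in at least 1 pair, and AT1G09500 was among the 15 where they did not. AT1G09500 was chosen for being higher in yda-2, and both its probe sets were higher in every pair. Its r of 0.92 is raised by that choice and its equal signs are favoured by it, while the other genes were not so chosen. Nothing is therefore read from its place among them. No such comparison was made for the r of 0.81 left after genotype means were subtracted. Probe sets whose identifier ends in _s_at, as 3 of the 4 here do, can by Affymetrix's naming bind transcripts of similar genes, and whether they did so was not tested.

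The genes whose log2 signal was most like that of 14015_s_at over the 8 arrays, among 2031 probe sets with a single other gene, were AT4G39140, AT4G33420, AT2G05540 and AT1G22690, with r of 0.88, 0.88, 0.88 and 0.87. The genotype difference for which 14015_s_at was chosen enters this r, so the list favours genes that also differ between the genotypes. With genotype means subtracted, r was 0.56, 0.49, -0.19 and 0.36 in the same order. AT4G33420 encodes a class III peroxidase, and AT2G05540 a glycine-rich protein. AT1G22690, of the GASA family of small cysteine-rich peptides, had a signal of 1596 ± 470 in yda-2 and 720.1 ± 196.1 in WT (SD, n = 4 each). AT1G09500 stood at place 26 of this list with 19614_at.

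The genes most like 19614_at, among 2030, were AT1G27090, AT2G21520, AT4G22820 and AT2G35820, with r of 0.93, 0.93, 0.92 and 0.92. Their log2 differences between the genotypes were 0.48, 0.37, 0.51 and 0.62, smaller than that of AT1G09500. The genotype difference enters this r as well, and with genotype means subtracted r was 0.86, 0.89, 0.75 and 0.77. The AT1G09500 probe set 17548_s_at came at place 5 and 14015_s_at at place 42.

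With genotype means subtracted, the likest genes changed. For 14015_s_at they were AT4G12360, AT4G37880, AT1G22910 and AT4G29590, with r between 0.87 and 0.90 over the 8 arrays. For 19614_at they were AT4G28480, which encodes a J-domain chaperone, AT2G41710, AT4G34660, which encodes an SH3-domain protein, and AT1G47530, of the MATE transporter family, with r between 0.93 and 0.95. All 4 of the genes likest to 19614_at had their lowest yda-2 and lowest WT value at number 2, as 19614_at did, which follows from choosing them by that likeness. For AT1G47530 the signal was 1263.7, 768.6, 1196.3 and 1009.5 on yda-2 arrays 1 to 4 and 1064.0, 432.7, 1067.3 and 1028.7 on WT arrays 1 to 4.

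Both genes sit beside close relatives on chromosome 1, in the gene order of assembly TAIR10.1. AT1G09500 lies between AT1G09490 and AT1G09510, of the same reductase kind. The signal of AT1G09490 was 769.0 ± 294.2 in yda-2 and 815.4 ± 148.3 in WT (SD, n = 4 each), a log2 difference of -0.16 (limma adjusted p = 0.9999, and 0.884 with the pairing). AT1G09510 was dim, at 43.9 ± 46.5 in yda-2 and 53.0 ± 82.8 in WT (SD, n = 4 each), and was not tested. AT1G30690, which precedes AT1G30700, averaged 232.1 in yda-2 and 263.0 in WT, and AT1G09520, beyond AT1G09510, 157.4 in yda-2 and 214.3 in WT. AT1G30700 is followed by AT1G30710, also berberine bridge enzyme-like, which had 44.6, 39.9, 1.0 and 1.5 on yda-2 arrays 1 to 4 and 3.0, 104.8, 3.8 and 3.0 on WT arrays 1 to 4. Its highest WT value is on array 2, as for 14016_s_at. Whether neighbours differ from AT1G30700 or AT1G09500 in their response was not tested.

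Of 27 berberine bridge enzyme-like genes listed, 12 had a probe set of their own and 5 were tested, AT1G30700 included. The 4 besides AT1G30700 had a median log2 difference of 0.38, with 3 above 0 and 1 below, beside a median of 0.04 over all 1920 tested named genes, of which 1064 were above 0. They lay between -0.12 and 0.61, and 0 passed in limma with or without the pairing, with 0 at an unadjusted p under 0.05 without it. Of all tested probe sets, 0.0418% were called higher without the pairing and 0.188% with it. In limma 2.46% were higher at an unadjusted p under 0.05, so a count of 0 is no result about these genes. AT4G20860, which encodes a cellodextrin oxidase, had 134.8 ± 66.2 in yda-2 and 83.1 ± 34.9 in WT on 13908_s_at (SD, n = 4 each), a log2 difference of 0.58. Its dimmer probe set 18597_at, not tested, had 150.1, 112.8, 175.1 and 65.2 on yda-2 arrays 1 to 4, against 112.6, 72.3, 15.4 and 27.4 on WT arrays 1 to 4. Of the 15 family probe sets besides those of AT1G30700 it was the 1 with yda-2 higher in 4 of 4 pairs, a share no greater than the 7.98% of all 8247 probe sets.

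The remaining tested berberine bridge enzyme-like genes were AT2G34810, AT4G20820 and AT4G20840, with log2 differences of 0.61, 0.18 and -0.12. AT4G20840, which encodes an oxidase of pectin fragments, had 272.6 ± 82.7 in yda-2 and 295.9 ± 81.3 in WT (SD, n = 4 each). The 11 untested probe sets of the family had mean signals from 2.5 to 125.8 in yda-2 and from 2.5 to 67.9 in WT. These belonged to AT1G11770, AT1G30710, AT1G30740, AT1G30760, AT4G20800, AT5G44380 and AT5G44440, and to further probe sets of AT4G20820 and AT4G20860.

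Of 23 reductases related to AT1G09500, 9 had a probe set of their own and 4 were tested. Besides AT1G09500 these were AT1G09490, AT2G02400 and AT2G23910, with log2 differences of -0.16, 0.14 and 0.28 and thus a median of 0.14. In all, 0 of those 3 passed in limma with or without the pairing, and 0 were at an unadjusted p under 0.05 without it. The shares of all tested probe sets that were higher are 0.0418%, 0.188% and 2.46% by these criteria, so 0 of 3 is no result about these genes. AT2G02400, of the cinnamoyl-CoA reductase family, had 589.2 ± 134.5 in yda-2 and 531.9 ± 108.2 in WT (SD, n = 4 each).

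DFR (AT5G42800), the dihydroflavonol reductase of anthocyanin synthesis, was too dim to be tested, and its values lay lower in yda-2. Its signal was 53.6, 11.1, 20.3 and 47.6 on yda-2 arrays 1 to 4, against 99.4, 135.8, 59.8 and 66.9 on WT arrays 1 to 4. All its yda-2 values lay below all its WT values, as for 0.809% of the 3459 probe sets under the minimum signal; DFR was singled out after its values were seen. BAN, the anthocyanidin reductase gene, AT4G27250, AT1G09480 and AT1G09510 were also below the minimum, with overlapping groups.

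**Figure D4:**
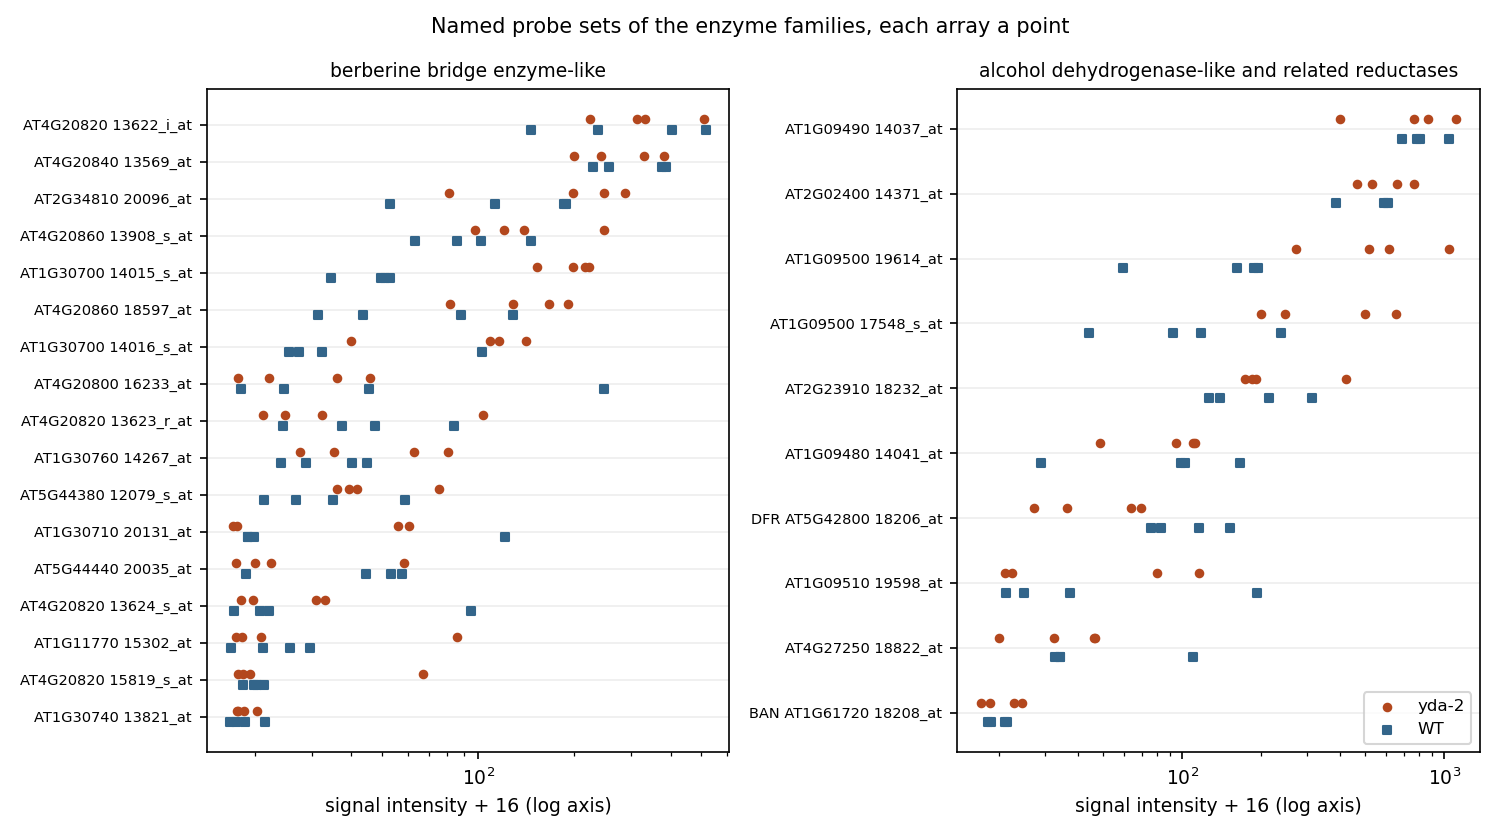
Signal intensity plus 16, on a logarithmic axis, of every named probe set of the berberine bridge enzyme-like genes (left) and of the reductases related to AT1G09500 (right), ordered by mean signal; each point is an array, with yda-2 as circles above WT as squares. The yda-2 and WT points part fully for 14015_s_at, for 19614_at and, in the opposite direction, for DFR.

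Few genes of neighbouring pathways were named on the array. Of 23 genes of lignin monomer synthesis 0 had a probe set of their own. Of 30 genes that detoxify electrophiles and foreign compounds 2 were tested and 0 passed in limma with or without the pairing. These were ALDH7B4, an aldehyde dehydrogenase gene, and GSTF3, a glutathione transferase gene, with log2 differences of 0.73 and 0.18. Of 24 antioxidant enzymes 4 were tested and 0 passed, with CCS, the copper chaperone of superoxide dismutase, at 0.96 and MSRB5, GR and GR1 at 0.25, -0.18 and -0.17. Only 0.0418% of all tested probe sets were called higher without the pairing and 0.188% with it. A count of 0 among so few genes is therefore no result about either list.

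Of 18 pathogen defence genes 3 were tested, with log2 differences of 1.44 for CHI, a putative chitinase gene, 2.29 for OSM34, an osmotin gene, and 0.05 for WRKY53, a transcription factor gene. Of these 0 passed in limma without the pairing and CHI passed with it (adjusted p = 0.0333), where 0.0418% and 0.188% of all tested probe sets were called higher. Of 13 jasmonate genes 1 was tested, THI2.1, a thionin gene, at 0.03 on its brightest probe set 17012_at. Its probe set 14656_i_at had 0.07. The dimmer 14657_s_at, not tested, had -0.96, with yda-2 lower in every pair. The lists were drawn up with earlier results from these arrays known, so their directions are no independent evidence.

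Of 14 markers of green leaf tissue 1 had a probe set of its own, LHB1B2, a light-harvesting protein gene. Its summed signal ran from 5041 to 18366 in yda-2 and from 5282 to 16567 in WT. The sum is mostly 12739_s_at, which averaged 10606 in yda-2 and 10334 in WT. Its other probe set 12738_r_at averaged 509.8 in yda-2 and 552.1 in WT. These probe sets correlated at r = -0.83 over the 8 arrays and had opposite signs in 3 pairs. Of 10 root markers 2 had one, with a summed signal of 18.6 to 54.2 in yda-2 and 9.5 to 44.1 in WT. Of 9 flower markers 0 had one. Of 7 markers of senescent leaf 1 had one, SAG29, a sugar transporter gene. Its signal was 201.7, 340.5, 117.5 and 524.7 on yda-2 arrays 1 to 4, against 178.8, 26.7, 96.3 and 84.2 on WT arrays 1 to 4. SAG29 was higher in yda-2 in 4 of 4 pairs, as were 9.44% of all tested probe sets, and its groups overlapped. It did not pass in limma (adjusted p = 0.9999, and 0.506 with the pairing). The part of leaf age in the signal of AT1G30700 and AT1G09500 was not tested.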

How the data were processed

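RNA of 4 yda-2 and 4 WT rosette samples was hybridized to Affymetrix AtGenome1 arrays. The deposited values are signal intensity, 1 per probe set and array, without detection calls. Per the labels, the authors scaled the arrays to a target signal of 500, which does not equalize the spread of the arrays. Summary software is not given in the sources used here. Groups and replicate numbers came from the sample titles.

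Signals were used as log2(signal + 16). The 50 controls were left out, and 4788 probe sets with a mean of at least 100 were tested in limma 3.58.1 under R 4.3.3 (trend, two-sided, Benjamini-Hochberg, threshold 0.05). Replicate numbers mark plantings per the labels, and deviations of same-numbered arrays correlated at 0.596, 0.296, 0.324 and 0.577, so numbers were taken as pairs. The design fixed the unpaired fit as the main one. Standard errors of the genes' differences are from the arrays' own values. Names came from the platform annotation, updated to TAIR10.1: 3784 of 3794 probe sets with 1 gene matched. No sequences were used here.

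Named are the 2 genes, all named members of their families, up to 4 genes of each other list with the smallest unadjusted p, the 4 likest genes by each measure and direct neighbours. A gene with several tested probe sets entered list counts by its brightest. Genes and lists were chosen with earlier results of these data known. The fits were tested on simulated data with the spread of these arrays. For genotype, 5% of 2-fold and 68.4% of 4-fold differences were found without the pairing, and 43% and 84.4% with it. Of these calls 1.08% were false without the pairing and 6.05% with it. For plantings, simulated as a shift of numbers 3 and 4, 6.2% of 2-fold and 57.6% of 4-fold differences were found. Of the planting calls 3.63% were false. Alternatives covered the added constant, filter, normalization, trend, robust fit, array weights, pairing, and leaving out arrays or pairs. Figures were drawn with matplotlib 3.10.9.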

Additional observations from a re-analysis of the deposited data

Results flagged for a closer look

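Of 12 sets of 4 values checked, the signals of a genotype and the pair differences for each of the 4 probe sets, 3 held a value far from the others by Dixon's criterion. Chance gives about 1 in 20 sets. The WT value of AT1G30700 on 14015_s_at at number 3, 18.4 against 33.7 to 36.9, had a gap of 0.855 of the range on the log2 scale. The pair difference of AT1G30700 on 14016_s_at at number 2, -1.36 against 1.75 to 2.36, had a gap of 0.836 of the range. The WT value of AT1G09500 on 19614_at at number 2, 43.2 against 145.7 to 178.8, had a gap of 0.844 of the range.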

How the results depend on the processing

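The number of arrays limits all values, and dim signals have no detection call. The differences of all 4 probe sets between yda-2 and WT kept their sign in every setting run. That of 14015_s_at moved to 2.54 with a constant of 1 and 1.36 with 64, and that of 14016_s_at to 0.20 in replicates 1 and 2 and 2.27 in replicates 3 and 4. Leaving out 1 array gave 1.93 to 2.19 for 14015_s_at, 1.03 to 1.70 for 14016_s_at, 1.37 to 2.18 for 17548_s_at and 1.60 to 2.34 for 19614_at.

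Over all probe sets, 2 were called higher and 0 lower without the replicate block and 9 and 0 with the block. The higher count was 0 with a constant of 1 or a filter of 200, 1 without a filter, after quantile normalization or after median centring, and 10 (with 1 lower) with array weights. With the replicate block it was 3 after median centring, 0 after quantile normalization and 0 without a filter. It was 0 to 2 without 1 array and, with the block, 0 to 23 (0 to 5 lower) without 1 pair, the highest without pair 2. In limma 14015_s_at was called without trend (adjusted p = 0.0163) and with array weights (adjusted p = 0.0174), and 19614_at with the block (adjusted p = 0.0333), also after median centring (adjusted p = 0.0448) and not after quantile normalization (adjusted p = 0.102). It was also lost when dim probe sets were kept (adjusted p = 0.0887) or when pair 1, 3 or 4 was dropped (adjusted p = 0.310, 0.261 and 0.101). With the block and without pair 2, limma called 14015_s_at, 17548_s_at and 19614_at (adjusted p = 0.0146, 0.0280 and 0.0102). The calls of these probe sets come from the contrast that chose the genes, and 14015_s_at was tested only through its yda-2 arrays. Nothing is read from these calls.

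The planting count of 397 was 230 without a filter, 84 after quantile normalization, 138 without trend, 883 with array weights and 51 to 646 without 1 pair. 19614_at lost its planting call without a filter, after quantile normalization, without trend, with array weights and without pair 1, 2 or 3 (adjusted p from 0.0590 in limma without pair 3 to 0.322). 17548_s_at gained one with a constant of 64, median centring, array weights or without pair 2. The causes were not tested.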
